A study of Homo sapiens with 6 samples.

Results

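Cells limit inflammation by destroying the mRNAs of cytokines soon after they are made, and 3 families of zinc-finger proteins choose which mRNAs are destroyed. The regnases, the roquins and the tristetraprolin family have 9 human genes that were looked up by symbol, namely ZC3H12A, ZC3H12B, ZC3H12C, ZC3H12D, RC3H1, RC3H2, ZFP36, ZFP36L1 and ZFP36L2. All 9 were found among the 37902 genes of the table. They were compared between wild-type (WT) ARPE-19 cells and a POLDIP2 knockout line (POLDIP2 KO), with 3 biological replicates of each. The ARPE-19 line, established from human retinal pigment epithelium (RPE), was kept here under regular maintenance and collected at day 3 according to the labels. WT is the parental line, and the POLDIP2 KO line carries a lentivirus with SpCas9 and a guide against the POLDIP2 coding sequence and was selected with puromycin. A WT line with a control virus was not analysed here, so loss of POLDIP2 cannot be told apart from virus, Cas9 and selection. The sources used here do not say whether the KO line was grown from 1 cell. They also do not say whether replicates came from separate cultures, so p values measure the spread between these libraries, which may in part be technical. The reads recovered from the normalised counts summed to 39657489, 36517259 and 35515478 for WT replicates 1 to 3. For POLDIP2 KO replicates 1 to 3 they summed to 31532797, 45795509 and 38293289. These are reads assigned to genes and not the sequencing depth.

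The families read signals in the 3′ untranslated region (UTR) of an mRNA. Regnase-1, made by ZC3H12A, is an endonuclease that cuts mRNAs at stem-loops together with the helicase UPF1, and ZC3H12B, ZC3H12C and ZC3H12D encode its relatives regnase-2, regnase-3 and regnase-4. Roquin-1 and roquin-2, made by RC3H1 and RC3H2, bind stem-loops with a small loop of pyrimidine, purine and pyrimidine and recruit the CCR4-NOT deadenylase. Tristetraprolin, made by ZFP36, and its relatives ZFP36L1 and ZFP36L2 bind AU-rich elements and recruit the same deadenylase. The factors are held in check in turn by the proteases, kinases and ligases of inflammatory signalling, such as MALT1, the IKK kinases and MK2. RPE cells are known to secrete chemokines such as IL-8 and MCP-1, whose mRNAs these factors act on, when they are stimulated by inflammatory cytokines.

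The signals are shown first, because the factors' own mRNAs carry them. The 3′ UTR of the Ensembl canonical transcript (GENCODE release 44, GRCh38) was searched on the transcript strand for the AU-rich nonamer TTATTTATT. It was also searched for a perfect hairpin of 5 Watson-Crick pairs around a loop of 3 bases made of pyrimidine, purine and pyrimidine. Of 13061 tested genes with such a UTR, 9.86% held the nonamer and 28.3% held the hairpin. Long UTRs hold more matches by length alone, and the median UTR length was 3888 bases for the 9 factors against 1376 for the tested genes. A match is a description of these letters and not a bound site. The nonamer was found in 5 of the 9 factors, including all 3 of the tristetraprolin family, whose matches are shown because they are the letters that family binds, with the nonamer in capitals.
ZFP36, chr19:39409200-39409220, plus strand: acgactTTATTTATTctaata
ZFP36L1, chr14:68788081-68788101, minus strand: gttggaTTATTTATTttagaa
ZFP36L2, chr2:43223452-43223472, minus strand: tttaacTTATTTATTatcttg

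The hairpin was found in 5 of the 9 factors as well, with 3 matches in ZC3H12A, 4 in ZC3H12B, 1 in ZC3H12C, 5 in RC3H1 and 2 in RC3H2. It was not found in the UTRs of ZC3H12D or the tristetraprolin family. The 3 matches of ZC3H12A are shown with 1 match each of RC3H1, RC3H2 and NFKBIZ, a target with 3 matches that is described further on, with the stem and loop in capitals. The matches of the roquin genes were picked because they share letters.
ZC3H12A, chr1:37483839-37483859, plus strand: gttgATACACATTGTATctct
ZC3H12A, chr1:37484032-37484052, plus strand: gttgGGCACCGTGTGCCtgcc
ZC3H12A, chr1:37484300-37484320, plus strand: aattTTAAATATTTTAAgcag
RC3H1, chr1:173934688-173934708, minus strand: aataACTTCTGTGAAGTtgcc
RC3H2, chr9:122848224-122848244, minus strand: attaACTTCTGTGAAGTtgtt
NFKBIZ, chr3:101859469-101859489, plus strand: agttGTTTCTATGAAACaaac
RC3H1 and RC3H2 share all letters of the hairpin shown, in UTRs that lie on different chromosomes.

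The labels were checked on the targeted gene and on cell type markers. For POLDIP2 (ENSG00000004142), the mean of 3 WT libraries was 4515 ± 516 normalised counts and the mean of 3 POLDIP2 KO libraries 1151 ± 92.8 (± SD). The change fitted by limma on the log2 scale (log2FC, always POLDIP2 KO relative to WT) was -1.97, with a standard error (SE) of 0.125 and an adjusted p of 0.00961. The keratins KRT8 and KRT18, which RPE cells express, and the RPE transcription factors MITF and OTX2 were present in all 6 libraries, with normalised counts of 574 to 883 for OTX2. RPE65 and TTR, both markers of mature RPE, were listed at 0 in every library. TYRP1 had 1.04 to 27.1 normalised counts, MERTK 18.5 to 63.5, RLBP1 19.7 to 68.2 and PMEL 36.7 to 103. BEST1 had 61.4 to 669 and RDH5 188 to 322. LRAT was lower in every POLDIP2 KO library, with 106, 75.3 and 29.2 in WT and 22.1, 24.4 and 28.8 in POLDIP2 KO (limma adjusted p = 0.731). Over all genes tested, 5.44% were lower without overlap. Leukocytes use regnases and roquins too, so their markers were examined as a sign of other cells. The T cell gene CD3E and the microglial gene AIF1 were listed at 0 in all libraries. A listed 0 does not by itself show that a gene is silent, as is described further on for PARN. The pan-leukocyte gene PTPRC was listed at 0 in the WT libraries and had 1.23, 3.26 and 6.95 in POLDIP2 KO, or 1, 4 and 7 reads. The 9 leukocyte markers summed to 1757, 2272 and 2099 normalised counts in WT and to 1896, 2179 and 1979 in POLDIP2 KO. CD68, a lysosomal protein that other cells make as well, was the most abundant of them, with 1680 to 2187, and made up most of each sum. CSF1R was lower in every POLDIP2 KO library, with 48.2, 24.1 and 15.7 in WT and 4.92, 14.7 and 11.9 in POLDIP2 KO (limma adjusted p = 0.819). ITGAM overlapped between the lines, with 3.78, 28.1 and 37.6 in WT and 16.0, 6.51 and 5.96 in POLDIP2 KO.

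Of the 9 factors, ZC3H12A stood higher in every POLDIP2 KO library, ZC3H12B and RC3H2 stood lower in every POLDIP2 KO library, and the libraries of the other 6 overlapped. All 9 passed the filter of a mean normalised count of at least 10, and 0 passed both thresholds of the limma test, which are limits of 0.05 for the adjusted p and of 1.5 for the fold change. The same test called 0.17% of all 14684 genes tested, 0.0817% higher and 0.0885% lower in POLDIP2 KO. At an unadjusted p value under 0.05, 2 of the 9 passed, against 6.48% of all genes. In bulk libraries, fewer cells that express a gene and less RNA per cell cannot be told apart. The count without overlap was 1 higher and 2 lower, against 5.46% and 5.44% of all genes tested. The median log2FC of the 9 was 0.00, as was that of all genes tested, with 5 factors higher and 4 lower. For 7 of the 9 the fitted change was under 1.5-fold, as it was for 88.5% of all genes tested.

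**Figure D1:**
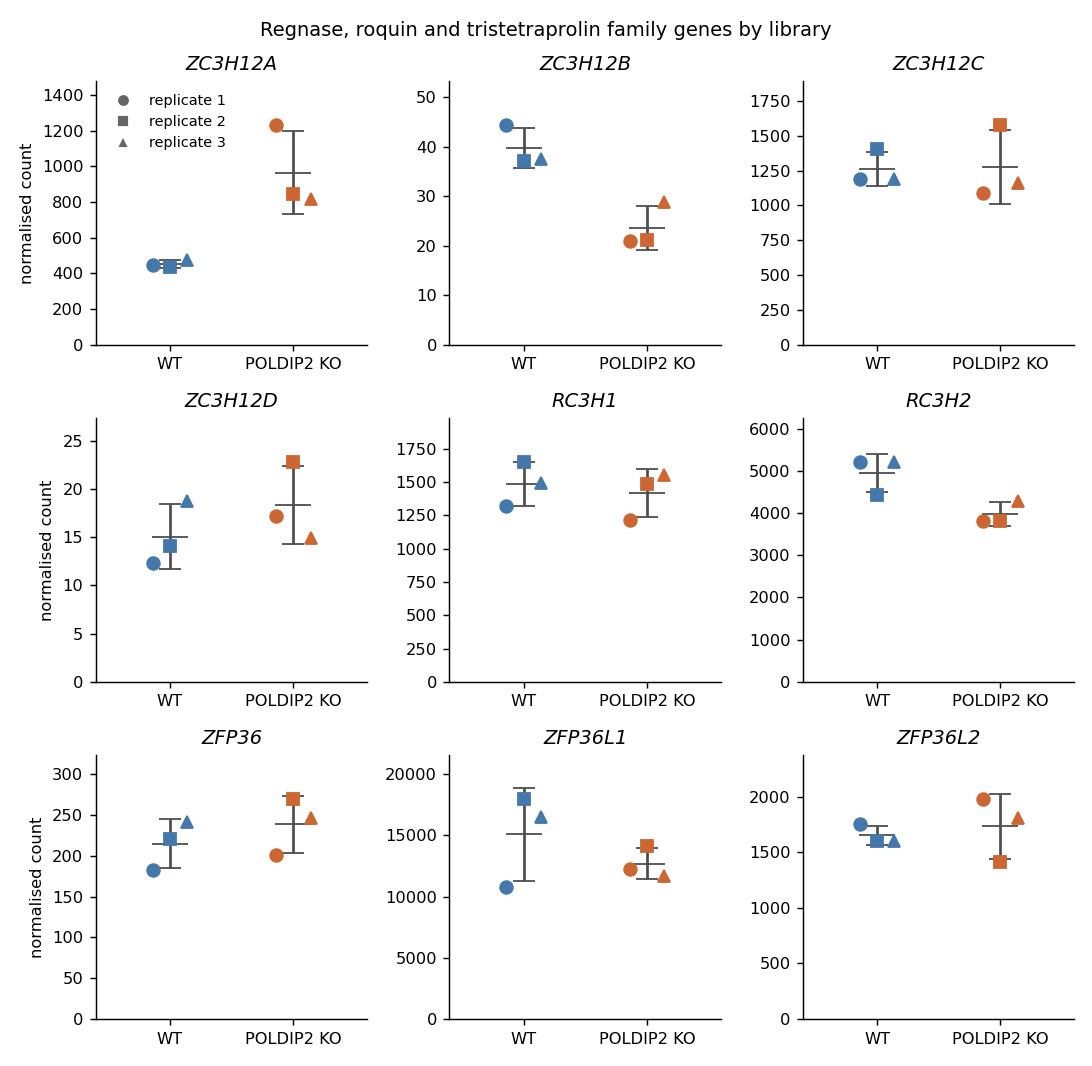
Normalised counts (y axis, from 0) of the 9 decay factors in WT and POLDIP2 KO, with a point for each library, a symbol for each replicate number, and a line with error bars for the mean ± SD of 3 libraries. The 3 POLDIP2 KO points lie above the WT points for ZC3H12A and below them for ZC3H12B and RC3H2, and overlap with them in the other 6 panels.

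Among the regnases, ZC3H12A (ENSG00000163874, chr1:37474580-37484377, plus strand of GRCh38) had the largest difference of the 9 factors. In the order of the replicate numbers, which is kept from here on, it had 448, 435 and 477 normalised counts in WT against 1233, 844 and 815 in POLDIP2 KO. The WT libraries were close together, and all POLDIP2 KO libraries lay above them, with replicate 1 well above the other two. The means were 453 ± 21.4 and 964 ± 233 (SD, n = 3 libraries each). The fold fitted by limma on log2(normalised count + 1) was 2.09, a log2FC of 1.06 (SE 0.184, 95% confidence interval 0.63 to 1.5). The limma adjusted p value was 0.13, so the difference did not pass the threshold over all genes, although its unadjusted p value ranked 77 of 14684. Without POLDIP2 KO replicate 1 the log2FC was 0.87, and over the fits that left out 1 library each the limma adjusted p value was 0.146 to 0.364. DESeq2 on the reads recovered from the normalised counts gave an adjusted p value of 0.000121, the only call of a factor by any alternative, while DESeq2 called 0.756% of all genes tested higher and 0.933% lower. The edgeR test on the same reads called 0 of the 9 factors, and 0.0613% of all genes higher and 0.0545% lower. Limma blocked by replicate number called 0.116% of all genes higher and 0.0885% lower, and gave ZC3H12A an adjusted p of 0.0992.

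The other regnases were less abundant or did not differ beyond the spread of the libraries. ZC3H12C (ENSG00000149289, chr11:110093392-110171841, plus strand), which encodes regnase-3, had normalised counts of 1187, 1405 and 1192 in WT and of 1090, 1577 and 1157 in POLDIP2 KO. Its POLDIP2 KO libraries surrounded the WT libraries on both sides, and the log2FC was 0.00 (SE 0.168, limma adjusted p = 0.9998), with a 95% confidence interval of -0.40 to 0.40. ZC3H12B (ENSG00000102053, chrX:65034788-65507887, plus strand), which encodes regnase-2, was low in both lines, with 44.4, 37.1 and 37.6 normalised counts in WT and 20.9, 21.2 and 28.8 in POLDIP2 KO. The lines did not overlap, but the log2FC of -0.74 (SE 0.333) had a 95% confidence interval that reached from -1.52 up to 0.05, with adjusted p = 0.829 by limma. ZC3H12D (ENSG00000178199, chr6:149446795-149485014, minus strand), which encodes regnase-4, had 12.3, 14.0 and 18.8 normalised counts in WT and 17.2, 22.8 and 14.9 in POLDIP2 KO. These are 13 to 28 reads per library, the libraries of the lines overlapped, and the interval of the log2FC, -0.75 to 1.28, was wide, so that a smaller difference was not detectable at this depth. The spans of ZC3H12B and ZC3H12C overlap with LAS1L and RDX on the other strand, 2 expressed genes with mean normalised counts of 1514 and 7898. The library kit keeps the strand, but how strand was used in counting is not given in the sources used here, so these values are less certain.

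The roquin genes were well expressed. RC3H1 (ENSG00000135870, chr1:173931084-174022357, minus strand), for roquin-1, had normalised counts of 1322, 1651 and 1491 in WT and of 1214, 1489.7 and 1552 in POLDIP2 KO. The lines overlapped, with a log2FC of -0.07 (SE 0.143) and a 95% confidence interval of -0.41 to 0.27. RC3H2 (ENSG00000056586, chr9:122844556-122905359, minus strand), for roquin-2, had 5205, 4434 and 5206 normalised counts in WT and 3815, 3802 and 4293 in POLDIP2 KO. Every POLDIP2 KO library of RC3H2 was below every WT library, by a small step, since the highest POLDIP2 KO value was 4293 and the lowest WT value 4434. The means were 4948 ± 446 and 3970.0 ± 279 (SD, n = 3 libraries each), and the log2FC of -0.32 (SE 0.111, 95% confidence interval -0.58 to -0.05) had a limma adjusted p value of 0.615. Blocked by replicate number, the limma adjusted p value of RC3H2 was 0.263, the lowest of its alternatives.

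In the tristetraprolin family, the libraries of WT and POLDIP2 KO overlapped for all 3 genes. ZFP36 (ENSG00000128016, chr19:39406847-39409412, plus strand), for tristetraprolin itself, had normalised counts of 182, 221 and 241 in WT and of 201, 269 and 246 in POLDIP2 KO. Its log2FC was 0.15 (SE 0.201) with a 95% confidence interval of -0.32 to 0.62. ZFP36L1 (ENSG00000185650, chr14:68787660-68796253, minus strand) was the most abundant factor, with 10773, 17964 and 16543 normalised counts in WT and 12225, 14155 and 11708 in POLDIP2 KO. WT replicate 1 was below all other libraries and the other WT libraries were above them. The log2FC was -0.22 (SE 0.204, 95% confidence interval -0.70 to 0.26) over all libraries, with a limma adjusted p value of 0.9998. It was -0.45 without WT replicate 1, -0.08 without WT replicate 2 and -0.14 without WT replicate 3. ZFP36L2 (ENSG00000152518, chr2:43222402-43226606, minus strand) had 1752, 1606 and 1599 normalised counts in WT and 1978, 1412 and 1812 in POLDIP2 KO. The lowest and the highest library both belonged to POLDIP2 KO, and the log2FC was 0.06 (SE 0.146, 95% confidence interval -0.29 to 0.40).

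**Figure D2:**
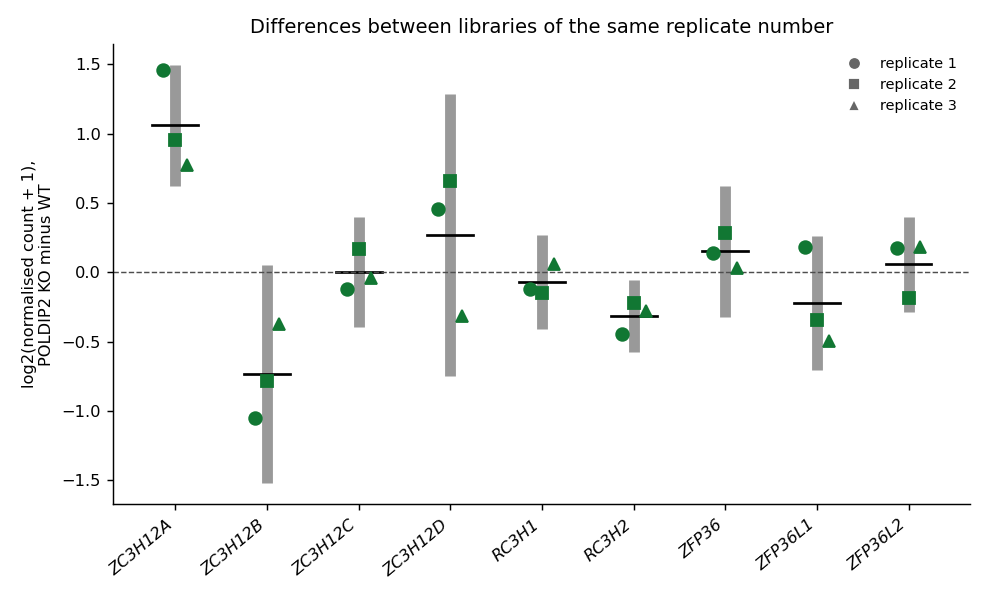
Difference of log2(normalised count + 1), POLDIP2 KO minus WT (y axis), between libraries of the same replicate number for the 9 factors, with a symbol for each number. Black lines are the limma log2FC values and grey bars their 95% confidence intervals, which lie above 0 for ZC3H12A, below 0 for RC3H2, and include 0 for the other 7.

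Taken by replicate number, the difference of ZC3H12A was 1.46, 0.95 and 0.77 on the log2 scale in numbers 1, 2 and 3. ZC3H12B differed by -1.05, -0.78 and -0.37, and RC3H2 by -0.45, -0.22 and -0.28. Each of these 3 genes thus had its largest difference in number 1. ZFP36 was higher in POLDIP2 KO in all 3 numbers, by 0.14, 0.29 and 0.03, although its lines overlapped. A positive sign in all 3 numbers was found for 17% of all genes tested and a negative sign for 15.7%. The remaining 5 factors changed sign between numbers.

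**Figure D3:**
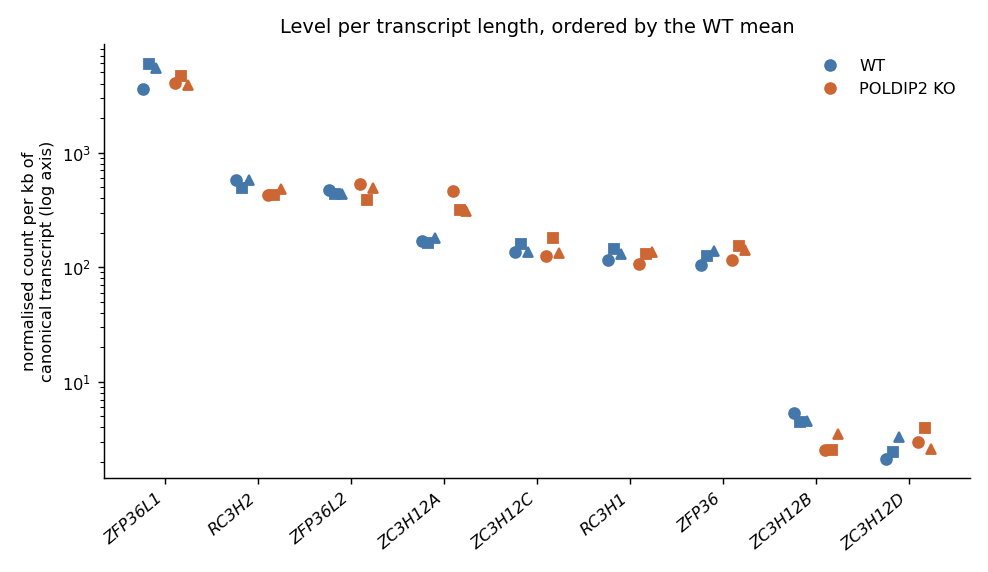
Normalised count per kilobase of the canonical transcript (y axis, log scale) of the 9 factors, ordered by the WT mean, with a point for each library of WT and POLDIP2 KO. ZFP36L1 lies well above the others, ZC3H12B and ZC3H12D lie far below them, and the remaining 6 factors lie between 104 and 581.

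To compare levels between genes, normalised counts were divided by the length of the canonical transcript. Per kilobase, ZFP36L1 stood first in both lines, at 5003 ± 1262 in WT and 4208 ± 427 in POLDIP2 KO (SD, n = 3 libraries each). RC3H2 and ZFP36L2 came next in WT, at 552 ± 49.7 and 447 ± 23.5 per kilobase, and in the other order in POLDIP2 KO, at 443 ± 31.2 and 469.6 ± 78.7, where their libraries overlapped. ZC3H12A followed in both lines, at 171 ± 8.07 and 363 ± 87.8 per kilobase. In WT it lay just above ZC3H12C, at 144 ± 14.2, RC3H1, at 129.9 ± 14.4, and ZFP36, at 123 ± 17.1, and the libraries of these last 3 overlapped. In POLDIP2 KO the lowest ZC3H12A library, at 307 per kilobase, was above the highest library of these 3 genes, ZC3H12C replicate 2 at 179.7. ZC3H12B, at 4.80 ± 0.493 and 2.86 ± 0.542, and ZC3H12D, at 2.62 ± 0.586 and 3.19 ± 0.707 per kilobase, came last. With the length of the union of exons instead, RC3H2 and ZFP36L2 changed places in WT, and RC3H1 and ZFP36 changed places in POLDIP2 KO.

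Ratios within a library do not depend on its size factor. The ratio of ZC3H12A to ZC3H12C per kilobase was 1.25, 1.03 and 1.32 in WT and 3.74, 1.77 and 2.33 in POLDIP2 KO, without overlap. ZC3H12A to ZFP36 per kilobase was 1.62, 1.30 and 1.30 in WT and 4.05, 2.06 and 2.18 in POLDIP2 KO, also without overlap. Within the roquins, RC3H2 to RC3H1 per kilobase was 5.03, 3.43 and 4.46 in WT and 4.01, 3.26 and 3.53 in POLDIP2 KO, with overlap, though it was lower in POLDIP2 KO in all 3 replicate numbers. ZFP36L1 to ZFP36 per kilobase was 34.2, 47.1 and 39.7 in WT and 35.3, 30.4 and 27.5 in POLDIP2 KO, where only POLDIP2 KO replicate 1 reached into the WT range. The ratios were not tested.

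The genes whose pattern over the 6 libraries was most like that of ZC3H12A were found by Pearson correlation of log2(normalised count + 1) among the 13798 tested genes with a symbol. They were CEBPD, a transcription factor of the inflammatory response (r = 0.993), ALDH1L2, a mitochondrial folate enzyme (r = 0.992), the kinase gene PRKD1 (r = 0.989), TNFRSF9, the co-stimulatory receptor 4-1BB (r = 0.989), and RARRES1, a retinoic acid responsive gene (r = 0.986). CEBPD had 54.8, 57.2 and 56.4 normalised counts in WT and 169.8, 113 and 97.3 in POLDIP2 KO. ALDH1L2 was listed at 0 in all WT libraries and had 44.3, 9.77 and 13.9 in POLDIP2 KO. It therefore passed the filter through POLDIP2 KO alone, and how far this shapes its r was not tested. As with ZC3H12A, POLDIP2 KO replicate 1 was the highest library for each of the 5 genes. Among them TNFRSF9 passed both limma thresholds (log2FC 2.43, adjusted p = 0.0281), a call that was lost when any 1 library was left out (adjusted p 0.0517 to 0.135). The 5 genes most like ZFP36 were WWTR1, which encodes the Hippo pathway coactivator TAZ (r = 0.998), the prolyl isomerase gene FKBP1A (r = 0.995), ZBTB8OS, which encodes archease (r = 0.993), the glycine cleavage gene GCSH (r = 0.992) and the kinase gene PAK1 (r = 0.990). For each of these, and for ZFP36, WT replicate 1 was the lowest library and POLDIP2 KO replicate 2 the highest. The values of r are a description over 6 libraries that all genes share.

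The enzymes that the factors recruit were examined by list. Counts of 0 called genes in lists of this size are near the 0.17% called over all genes tested, and say little about a list. Without overlap, 5.46% of all genes tested were higher and 5.44% lower. A count of 1 such gene in a list of this size is near those shares and says little as well. Of 15 deadenylase genes, 14 passed the filter and 0 passed the limma thresholds in either direction, with a median log2FC of -0.01. CNOT1, the CCR4-NOT scaffold that roquin and tristetraprolin contact, had a log2FC of 0.00 (95% confidence interval -0.29 to 0.30). PAN2 and CNOT7, which encode poly(A) nuclease and deadenylase subunits, had the smallest p values of the list, with log2FC values of -0.43 and -0.16 and limma adjusted p values of 0.826 and 0.951, and CNOT7 was the only gene of the list without overlap (lower in POLDIP2 KO). PARN, another deadenylase that most cells use, was listed at 0 in every library, so a 0 in this table does not show that a gene is silent. Among 16 tested genes of decapping and of the nuclease XRN1, 0 were called, and the decapping activator PATL1 was the only one without overlap (log2FC 0.14, limma adjusted p = 0.9998). LSM2, part of the ring that binds decaying mRNA, was listed at 0 in all libraries but POLDIP2 KO replicate 3, which had 421, and has no usable fold change.

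The exosome and its Ski cofactors, which degrade RNA from the 3′ end, had 16 of 16 genes tested, 0 called and 0 without overlap, where 0.17% of all genes tested were called and 5.46% and 5.44% were higher and lower without overlap. EXOSC2 and EXOSC8, both core subunits, had the smallest p values of that list. Their log2FC values were -0.35 and -0.19 (limma adjusted p = 0.9998 for both). Among the 10 genes of UPF1 and the SMG factors, 0 were called, and UPF1, the partner of regnase-1, had a log2FC of -0.03 (limma adjusted p = 0.9998). SMG9, which binds the kinase SMG1, was lower in every POLDIP2 KO library (log2FC -0.22, limma adjusted p = 0.959), and SMG6, an endonuclease, had a log2FC of -0.16 with overlap. Of 9 genes for other proteins that bind AU-rich elements or stem-loops, 0 were called and all overlapped. ARID5A, which protects IL6 mRNA from regnase-1, had a log2FC of -0.48 (SE 0.289, limma adjusted p = 0.976), and the translational repressor gene TIA1 one of 0.20 (SE 0.188).

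In the list of 5 other proteins with a nuclease domain of the regnase kind or a CCCH zinc finger, NYNRIN stood out by its size. It encodes a protein with such a nuclease domain beside a retroviral integrase. NYNRIN had normalised counts of 147, 97.3 and 108.6 in WT and of 38.1, 21.98 and 14.9 in POLDIP2 KO, so every POLDIP2 KO library was well below WT. The log2FC was -2.27 (SE 0.404, 95% confidence interval -3.22 to -1.31), the limma adjusted p value was 0.142, and DESeq2 on the recovered reads gave an adjusted p value of 0.00044. N4BP1, a nuclease that cuts cytokine mRNAs and is cleaved by MALT1, had a log2FC of -0.15 (limma adjusted p = 0.9998), with its highest POLDIP2 KO library and its lowest WT library less than 1 normalised count apart. KHNYN, ZC3HAV1 and ZC3HAV1L overlapped between the lines.

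Of 19 genes for kinases, proteases and ligases that act on the decay factors, all were tested, 0 were called (0.17% of all genes tested), and the median log2FC was -0.03. Without overlap, 2 were higher and 1 was lower, against 5.46% and 5.44% of all genes tested. IKBKE, an IKK-related kinase gene, had 358, 337 and 410.3 normalised counts in WT and 522, 494 and 518 in POLDIP2 KO. Its libraries did not overlap, with a log2FC of 0.48 (SE 0.141, limma adjusted p = 0.455). TANK, whose product binds regnase-1 with the deubiquitinase USP10, had 1519, 1806 and 1501 in WT and 1858, 1968 and 2131 in POLDIP2 KO, a log2FC of 0.31 (SE 0.119, limma adjusted p = 0.705). MALT1, whose product cleaves regnase-1 and the roquins, had a log2FC of 0.16 (SE 0.123) with overlap. CARD14, a scaffold gene of the MALT1 complex, was lower in every POLDIP2 KO library but had at most 25.5 normalised counts.

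The mRNAs that the factors are known to destroy were then examined, from lists that were drawn up with the rise of several of these genes in these same libraries known, so their direction is not independent evidence. Of 19 regnase and roquin targets, 10 passed the filter. TNF, IL2, IL12B, ICOS and CALCR were listed at 0 in every library, and PTGS2, TNFRSF4, CTLA4 and LCN2 had means under 10. As with PARN, a listed 0 does not show that a gene is silent. IL1B and CXCL1 had WT means of 6.63 and 2.26, and so passed the filter through POLDIP2 KO alone. IL1B, an inflammatory cytokine, and NFKBIZ, which encodes the NF-kB cofactor IkB-zeta, rose past both thresholds, where 0.0817% of all genes tested were called higher. NFKBIZ, whose hairpin is printed above, had 320.3, 339 and 290.3 normalised counts in WT and 1049, 899.5 and 824 in POLDIP2 KO. In IL6, the classic regnase-1 target, the values were 57.6, 126 and 55.3 in WT and 385, 198 and 127 in POLDIP2 KO. The lines of IL6 barely separated, since WT replicate 2 and POLDIP2 KO replicate 3 were 126 and 127, and the log2FC of 1.52 (SE 0.49) had a limma adjusted p value of 0.542.

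In contrast, other targets of regnase and roquin overlapped between the lines. TFRC, the transferrin receptor gene with 4 hairpin matches in its UTR, had a log2FC of 0.11 (SE 0.321). REL and NFKBID, both of the NF-kB system, had log2FC values of 0.03 and 0.02. PPP1R10, a phosphatase regulator, was listed at 0 in WT replicate 1 and POLDIP2 KO replicate 3 and reached 2217 in POLDIP2 KO replicate 1, so its values are not usable. The hairpin was found in 4 of the 6 tested targets that were higher in every POLDIP2 KO library and in 4 of the 4 others, which include PPP1R10. Over all genes tested, 5.46% were higher without overlap. IL1B and IL6 were the targets without it among the 6, which also include CXCL1. Both IL1B and CXCL1 passed the filter through POLDIP2 KO alone.

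Of 34 targets of the tristetraprolin family, 25 passed the filter, 2 rose past both thresholds, 10 were higher and 2 were lower in every POLDIP2 KO library. IL1B and CXCL1, which passed the filter through POLDIP2 KO alone, are among the 10, and IL1B is among those called, so these counts depend in part on the filter. Over all genes tested, 0.0817% were called higher, and 5.46% and 5.44% were higher and lower without overlap. The median log2FC of the list was 0.15 against 0.00 over all genes, with 17 genes higher and 8 lower. Besides IL1B the called gene was CCL2, which encodes the monocyte chemokine MCP-1, with 1375, 1734 and 1935 normalised counts in WT and 9014, 7593 and 6021 in POLDIP2 KO. The product of ZC3H12A was first described as a protein induced by MCP-1. The calls of IL1B, CCL2 and NFKBIZ rest on all libraries, since each lost its limma call when any 1 library was left out, with adjusted p values of 0.0517 to 0.119, while the log2FC values stayed at 1.44 or more. Leaving out 1 library also left the limma test with at most 3 genes called higher in all. By edgeR with the replicate number as a block, CCL2 and NFKBIZ lost their calls as well (adjusted p 0.0689 and 0.0603). IL1B kept its call there (adjusted p 0.0216).

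CXCL8, which encodes the neutrophil chemokine IL-8, was with CCL2 the most abundant chemokine target. It had 213, 1293 and 1323 normalised counts in WT and 6279, 7717 and 5404 in POLDIP2 KO. WT replicate 1 was far below the other WT libraries, and the log2FC was 3.16 (SE 0.674, limma adjusted p = 0.218) with it and 2.29 (limma adjusted p = 0.0338) without it. CSF2, which encodes the growth factor GM-CSF, had 1.89, 20.1 and 19.8 in WT and 73.8, 179 and 65.5 in POLDIP2 KO, again with WT replicate 1 lowest (log2FC 3.15, limma adjusted p = 0.382, and log2FC 2.20 without that library). CXCL3, a chemokine gene that is close in sequence to CXCL1 and CXCL2 and may share reads with them, had 12.3, 134 and 41.8 in WT and 267, 339 and 252 in POLDIP2 KO (log2FC 2.74, limma adjusted p = 0.395, and log2FC 1.90 without WT replicate 1 or 3.58 without WT replicate 2). The genes named in these sentences were chosen after their values were seen.

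The targets that did not pass the test include mRNAs with the nonamer. PIM1, a kinase gene with 3 nonamers, was lower in every POLDIP2 KO library, with a log2FC of -0.23 (limma adjusted p = 0.9). HIF1A and LIF, with 2 nonamers each, had log2FC values of 0.15 and 0.05, and CCND1 and MYC, without either signal, had values of 0.07 and 0.07, all with overlap. The nonamer was found in 7 of the 10 tested targets that were higher in every POLDIP2 KO library and in 9 of the 15 others. CCL2, IL6 and IER3 were those of the 10 without it, and CCL2, which was called, and IL6 held neither signal. IL1B and CXCL1, which passed the filter through POLDIP2 KO alone, are among the 7. The nonamer nearest the stop codon is shown for IL1B (of 2) and CXCL8 (of 1), which were higher in every POLDIP2 KO library, and for PIM1 (of 3) and LIF (of 2), which were not; these 4 genes were picked after their values were seen, and capitals mark the nonamer.
IL1B, chr2:112829999-112830019, minus strand: ccctatTTATTTATTtatttg
CXCL8, chr4:73742668-73742688, plus strand: aaagtaTTATTTATTtgaatc
PIM1, chr6:37174989-37175009, plus strand: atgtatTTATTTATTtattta
LIF, chr22:30240962-30240982, minus strand: gggcccTTATTTATTatttaa

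ZFP36 is an immediate-early gene, and ZC3H12A is induced through NF-kB, so both programmes were examined. Of 20 immediate-early genes, 18 passed the filter, 0 were called (0.17% of all genes tested), and the median log2FC was -0.12. WT replicate 2 stood apart in several of them. FOSB had 89.7, 594 and 246 normalised counts in WT and 77.5, 74.9 and 89.4 in POLDIP2 KO (log2FC -1.54, or -0.88 without WT replicate 2 and -2.24 without WT replicate 1, limma adjusted p = 0.746 with all libraries). ATF3 had 593, 2457 and 1086 in WT and 605, 452 and 605 in POLDIP2 KO, with overlap. ZFP36 in WT replicate 2, at 221, lay between the other WT libraries. Whether the high FOSB and ATF3 in that library bear on other comparisons was not tested.

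Of 14 NF-kB feedback and induced genes, 13 passed the filter, CCL2 and TNFAIP3 were called higher, 6 were higher in every POLDIP2 KO library, and the median log2FC was 0.58. The same measures over all genes tested were 0.0817%, 5.46% and 0.00. This list too was drawn up with earlier results of these data known, so its direction is not independent evidence. TNFAIP3, which encodes the feedback inhibitor A20, had 133, 219 and 198 normalised counts in WT and 1039.5, 891 and 696 in POLDIP2 KO. Its adjusted p by limma was 0.0586 once the libraries were blocked by replicate number, 0.0554 without the trended prior, and 0.0797 to 0.154 with any 1 library left out. NFKBIA, for the inhibitor IkB-alpha, had 901, 1346 and 1237 in WT and 1929, 2202 and 1820 in POLDIP2 KO (log2FC 0.79, limma adjusted p = 0.231). BIRC3, a ubiquitin ligase gene that is also on the tristetraprolin list, had 220, 255 and 423 in WT and 610, 625 and 546 in POLDIP2 KO (log2FC 1.04, limma adjusted p = 0.291). NFKB1, NFKB2 and RELB, which encode NF-kB subunits, overlapped between the lines, with log2FC values of 0.12, 0.15 and 0.15.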

How the data were processed

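Polyadenylated RNA of 3 WT and 3 POLDIP2 KO samples was sequenced as single-end reads from stranded libraries. The signal values that the authors deposited are normalised counts. They were made with Salmon 1.8, tximport 1.22.0 and DESeq2 1.34.0 on GRCh38, and the annotation release and the strand setting are not given in the sources used here. All columns were used, so 0 were left out. Symbols were taken from GENCODE release 44 and matched 34152 of 37902 genes, of which 16563 were at 0 in every library. DCP1B had no matching entry.

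Dividing each column by its smallest value above 0 gave whole reads for 100% of values (tolerance 0.001), so counts could be recovered. In WT replicate 2 and POLDIP2 KO replicate 3 that step is within 0.01 of 1, where this check says little. A count of 3 reads corresponds to 2.44 to 3.69 normalised counts.

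WT and POLDIP2 KO were compared with limma 3.58.1 (R 4.3.3) on log2(normalised count + 1), which understates changes of low genes, for the 14684 genes whose mean reached 10, with a trended prior and Benjamini-Hochberg adjustment over all of them. Calls needed both an adjusted p below 0.05 and more than 1.5-fold change. Library medians were 9.69 to 9.70 on the log2 scale. Alternatives used other pseudocounts (0.5, 5), other filters on the mean (none, 50), recentring, quantile normalisation, no trend, robust estimation, the replicate number as a block, edgeR 4.0.16 (with and without the block) and DESeq2 1.42.0 on recovered reads, and leaving out each library. The steps were tested on simulated data. Deviations from the line means correlated at 0.315, 0.137 and 0.129 between libraries that share replicate number 1, 2 or 3 in the labels. In other combinations they correlated at -0.259 to 0.147, the highest being WT replicate 3 with POLDIP2 KO replicate 2. That value exceeds those of numbers 2 and 3, and deviations from a mean of 3 libraries constrain each other. These values therefore cannot decide whether the numbers pair the libraries. Values by replicate number and the block fits follow the labels, while the main limma fit did not use the numbers.

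The named genes were POLDIP2, the 9 factors, the called genes and the 2 smallest p values of each list, and the 5 genes most correlated with ZC3H12A and with ZFP36. Any other gene was picked for naming with its values in view. In the tristetraprolin target and leukocyte lists, 1 gene each is counted but not reported here on its own. The members and lists were chosen with earlier results of these data known. The lists cover deadenylases, decapping, exosome, UPF1 and SMG factors, other nucleases, other RNA binders, regulators, both target groups, immediate-early genes, NF-kB genes, leukocyte markers and RPE markers. In the RPE list 0 of 11 tested genes were called, and LRAT and OTX2 had its smallest p values, with log2 fold changes of -1.27 and -0.26. In the leukocyte list 0 of 4 were called. CSF1R and ITGAM had its smallest p values, with log2 fold changes of -1.37 and -0.86. The value of ITGAM ranged from -1.80 to -0.29 with 1 library left out. UTR matches were made with Python 3.11.15 and pandas 2.3.3.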

Additional observations from a re-analysis of the deposited data

How the results depend on the processing

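Against 12 genes higher and 13 lower in POLDIP2 KO by limma, DESeq2 on recovered reads called 111 and 137, and edgeR with the replicate block called 3 and 2. Genes called lower numbered 6 with a mean of at least 50 and 8 by edgeR without the block. Leaving out 1 library each gave 0 to 3 higher and 0 to 2 lower. Without WT replicate 2 or 3 or POLDIP2 KO replicate 2 or 3 there were 0 calls in either direction by limma, while 865, 905, 870 and 701 genes had p under 0.05 before adjustment. Of the 9 factors, DESeq2 called 1 (ZC3H12A) and the other alternatives 0, and edgeR also called 0. The log2FC of POLDIP2 was -2.07 to -1.91 with 1 library left out, with limma adjusted p values up to 0.0886.

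Of the factors, ZC3H12C, at a log2FC of 0.00, changed sign to -0.000126 by edgeR with the block, and ranged from -0.163 to 0.103 with 1 library left out. RC3H1 ranged from -0.153 to 0.0374 and ZFP36L2 from -0.0454 to 0.198 with 1 library left out. In the same fits ZFP36 ranged from 0.0383 to 0.271 and ZC3H12D from 0.106 to 0.429, without a change of sign. All of these lie within the 95% confidence intervals given by all libraries. Over the alternatives with all libraries, the log2FC of ZC3H12A was 1.05 to 1.09 and its adjusted p value 0.000121 to 0.202. With the replicate block in limma, 17 genes were called higher and 13 lower, 0 of the 9 factors were called, and the adjusted p value of ZC3H12A was 0.0992. Of the named genes, TNFAIP3 alone lost its call in limma with the block (adjusted p 0.0586). In edgeR with the block, NFKBIZ, CCL2, TNFAIP3 and TNFRSF9 lost theirs (adjusted p 0.0603, 0.0689, 0.0801 and 0.0685) and IL1B did not. By DESeq2, 4 of the regnase and roquin targets and 8 of the tristetraprolin targets were called. The same test called 0.756% of all genes tested higher and 0.933% lower. The 4 were higher in POLDIP2 KO, and the 8 were not all higher. IL1B, CXCL1 and CXCL2 are in both counts, and IL1B and CXCL1 passed the filter through POLDIP2 KO alone. Depth limits ZC3H12B and ZC3H12D, which rest on 13 to 47 reads per library. The cause of the differences between settings was not tested.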
